A study of Mus musculus with 32 samples.

Results

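The fatty acid oxidation enzymes described here are the 9 genes Cpt1a, Slc25a20, Cpt2, Acadvl, Acadl, Acadm, Hadha, Hadhb and Acaa2, which encode the mitochondrial long-chain fatty acid import and beta-oxidation steps. They were chosen by gene symbol, and 9 of 9 were found among the 16741 genes of the RNA table. Bulk RNA was sequenced from donor T cells of C57Bl6 mice, sorted in a transplantation model of acute graft-versus-host disease (GVHD) whose Balb/c recipients differ from the donor at the major histocompatibility genes. The 31 libraries fall into 10 groups. CD4 conventional T cells and CD8 T cells have 2 libraries each at day 0, before the transfer. Syngeneic recipients gave 3 libraries per lineage, allogeneic recipients without added regulatory T cells (Treg) gave 4, and allogeneic recipients given Treg, called Treg-treated below, gave 4. For Treg there were 2 libraries at day 0 and 3 from Treg-treated recipients. Replicates are named by the prefix of their titles, JL019 or JL027, and a number where there is one. All libraries came from spleen and lymph nodes, and the labels give neither the animals' ages nor genetic modifications. Day 6 is the time in the library titles for cells recovered from recipients, and day 8 the one in the description of the series. The labels do not say whether libraries of a group came from separate animals, so the p-values measure the spread between these libraries, part of which may be technical.

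Long-chain fatty acids enter the mitochondrial matrix as acylcarnitines. Carnitine palmitoyltransferase 1 makes them at the outer membrane, a translocase carries them across the inner membrane, and carnitine palmitoyltransferase 2 returns them to acyl-CoA. Each turn of beta-oxidation then needs an acyl-CoA dehydrogenase chosen by chain length, a hydratase, a second dehydrogenase and a thiolase. In T cells this pathway is best known from Treg and memory cells, and acute GVHD is a setting in which fatty acid oxidation of donor T cells has been studied.

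The upstream sequences of 5 members are shown because these genes hold the extremes of the results: Slc25a20, Acadl and Cpt1a moved most between groups, Acadm moved the other way, and Hadhb moved least. Of the 9 members, 8 matched the RefSeq promoter table of build GRCm38.p6. The gene spans on that build are chr9:108662136-108684642 for Slc25a20, chr1:66830839-66863309 for Acadl, chr19:3322326-3385735 for Cpt1a, chr3:153922353-153944643 for Acadm and chr5:30155253-30184593 for Hadhb. The 250 bases before the start in that table are given from 5′ to 3′ in gene orientation, at chr9:108661886-108662135 (plus strand), chr1:66863310-66863559 (minus), chr19:3323051-3323300 (plus), chr3:153944644-153944893 (minus) and chr5:30155003-30155252 (plus), in the order listed. Capitals mark matches on either strand to AGGTCA (the half-site that nuclear receptors such as the PPAR family read), CCGGAAG (an ETS core) or GCATGCGC (an NRF1 core). No match overlapped another.
Slc25a20: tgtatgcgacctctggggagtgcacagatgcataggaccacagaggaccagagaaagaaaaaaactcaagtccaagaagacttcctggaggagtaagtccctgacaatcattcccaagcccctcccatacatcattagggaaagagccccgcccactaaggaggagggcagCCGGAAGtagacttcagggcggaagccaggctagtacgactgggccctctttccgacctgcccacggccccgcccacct
Acadl: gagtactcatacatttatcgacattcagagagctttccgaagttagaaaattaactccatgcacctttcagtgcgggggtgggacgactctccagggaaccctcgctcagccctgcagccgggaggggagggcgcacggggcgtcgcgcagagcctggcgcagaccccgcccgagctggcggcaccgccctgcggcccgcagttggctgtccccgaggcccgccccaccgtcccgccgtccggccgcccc
Cpt1a: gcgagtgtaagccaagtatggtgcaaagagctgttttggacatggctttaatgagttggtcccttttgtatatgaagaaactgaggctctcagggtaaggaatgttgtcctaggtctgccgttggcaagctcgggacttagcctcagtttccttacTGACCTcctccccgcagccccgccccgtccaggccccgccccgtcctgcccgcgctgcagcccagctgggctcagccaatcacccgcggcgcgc
Acadm: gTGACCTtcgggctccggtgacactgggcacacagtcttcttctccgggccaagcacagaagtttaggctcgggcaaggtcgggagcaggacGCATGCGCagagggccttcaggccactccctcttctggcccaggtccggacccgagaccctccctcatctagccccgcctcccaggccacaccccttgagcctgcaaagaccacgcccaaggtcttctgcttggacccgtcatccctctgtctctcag
Hadhb: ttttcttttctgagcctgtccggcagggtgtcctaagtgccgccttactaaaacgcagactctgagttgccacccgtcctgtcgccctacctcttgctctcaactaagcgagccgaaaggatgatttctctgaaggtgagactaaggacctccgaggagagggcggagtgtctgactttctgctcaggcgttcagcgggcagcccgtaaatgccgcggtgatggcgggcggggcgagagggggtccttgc

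Slc25a20 held 1 ETS core, 73 to 79 bases before its start, and Cpt1a held 1 AGGTCA half-site on the minus strand, 89 to 94 bases before the start in that table, which lies inside the gene span given above. Acadm held an NRF1 core at 151 to 158 bases and a half-site at 244 to 249 bases. Acadl and Hadhb held none of the 3 motifs in this window. Among the 8 members with a sequence, 3 held the half-site, 2 the ETS core and 1 the NRF1 core. Among the 32851 promoter windows of the same length in the table, where no chromosome was left out, the shares were 14.0%, 6.91% and 2.26%. Hadha and Hadhb, which encode the alpha and beta subunits of one enzyme complex, lie head to head with 272 bases between their starts, so the sequence printed for Hadhb lies entirely between the 2 genes.

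The table holds normalised counts from which whole reads were not recovered, so the depth behind each value is unknown. Levels are compared between groups for one gene and not between genes. The mean normalised count per gene of a library lay between 1227 and 2385, with the day 0 libraries between 1227 and 1484. Within each cell type every day 0 library had a lower mean than every later library. Fits below that use the log2 library mean as a covariate therefore extrapolate where cells are compared with day 0. Cd4 and Cd8 lineage genes separated the sorted populations with 1 exception, which comes before the results because several of them use it. In CD4 syngeneic replicate JL019-2 the CD4 lineage genes (Cd4 and Zbtb7b) summed to 2121, against up to 17838 in its group. Its 10 myeloid marker genes, which include the neutrophil genes S100a8 and S100a9 and the macrophage lysozyme Lyz2, summed to 3649630 against 79075 in the lowest library of the group, and its 7 erythroid genes to 467525 against 4650.3. Foxp3, the defining transcription factor of Treg, went against the label at day 0: its mean was 320.1 ± 173 (SD, n = 2) in the libraries labelled Treg, below the 1061 ± 118 (SD, n = 2) of CD4 cells. The other 4 Treg markers fixed for this check (Il2ra, Ikzf2, Ctla4 and Tnfrsf18) were each higher in both day 0 Treg libraries than in both day 0 CD4 libraries.

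**Figure D1:**
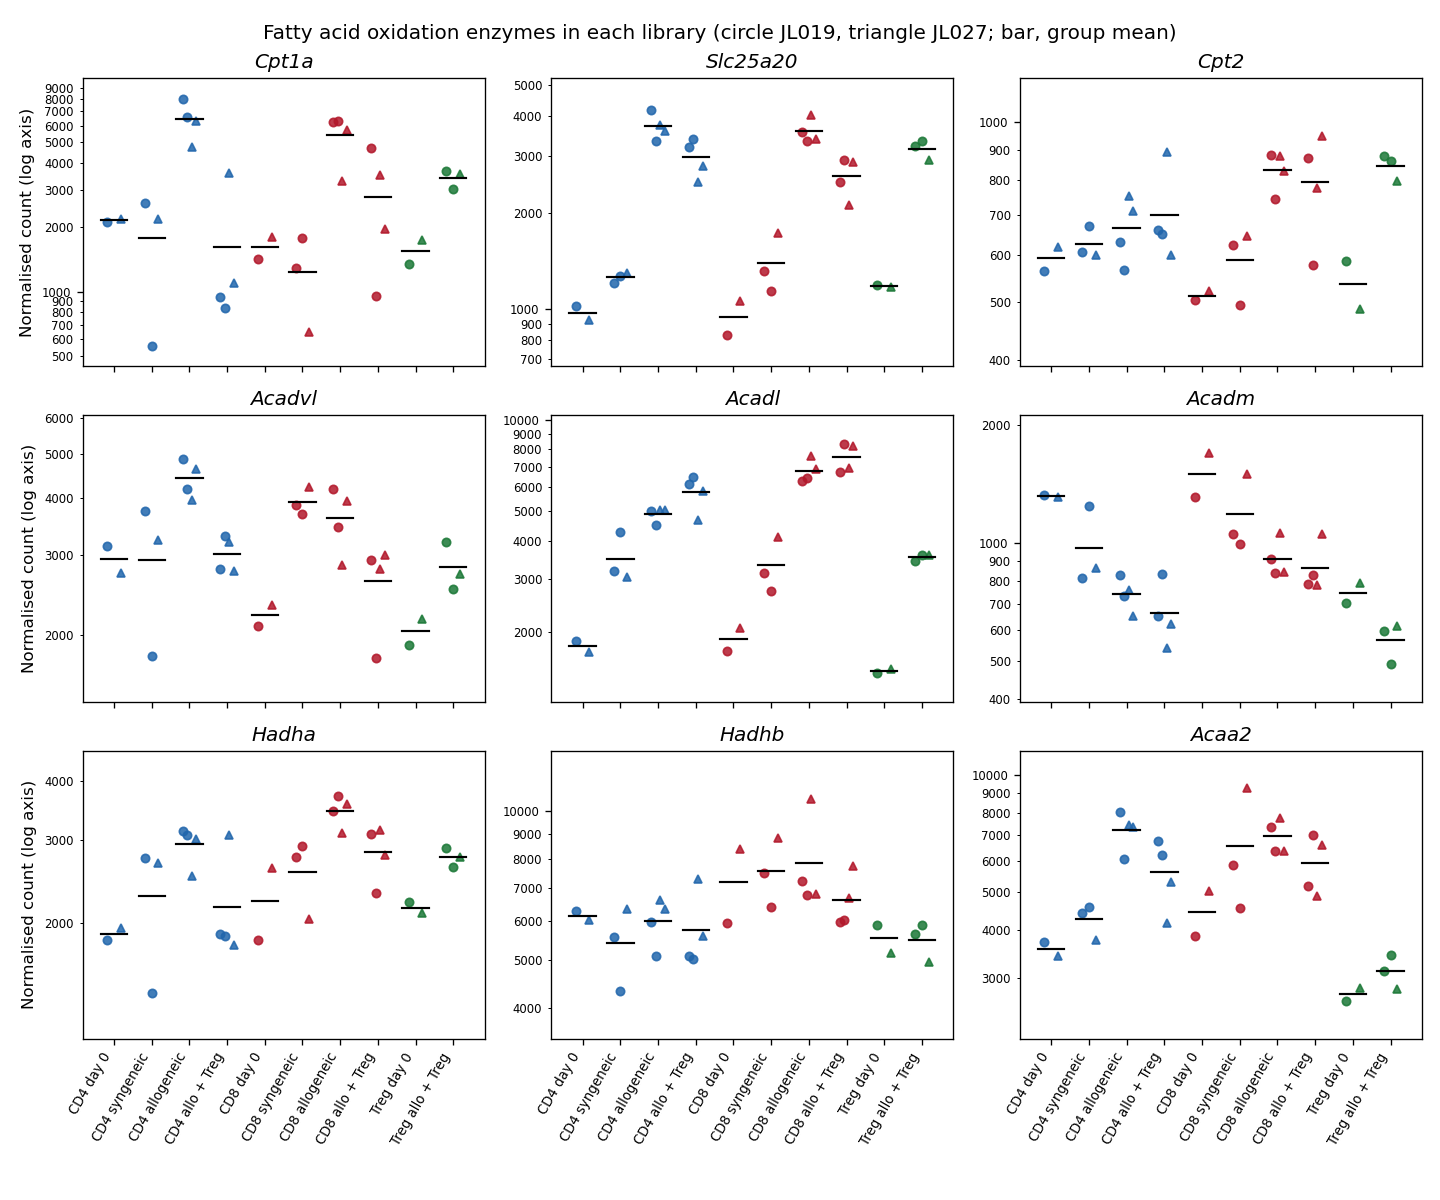
Normalised count of each of the 9 enzymes (log axis) in the 31 libraries by group, with circles for prefix JL019, triangles for prefix JL027 and a bar at the group mean. Slc25a20 and Acadl separate allogeneic from day 0 and syngeneic libraries, Acadm is highest at day 0 in CD4 and CD8 cells, and the group means of Hadhb differ by 1.45-fold at most.

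The 3 genes of the carnitine shuttle differed in how much they moved. Slc25a20, the carnitine-acylcarnitine translocase of the inner membrane, was higher in allogeneic than in syngeneic and day 0 cells of both lineages, with no overlap between the libraries. Cpt1a, the liver isoform of the first transferase and the rate-controlling step of the pathway, had the widest range of group means, 5.18-fold from CD8 syngeneic to CD4 allogeneic. Cpt2, the transferase of the inner membrane, had a range of 1.66-fold. A lower level in bulk RNA can mean fewer cells with the transcript or less transcript per cell, and these cannot be told apart here.

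Slc25a20 (ENSMUSG00000032602) had normalised counts of 1027 and 923 in the CD4 day 0 libraries and of 1204, 1273 and 1295 in the CD4 syngeneic libraries. The 4 CD4 allogeneic libraries had 4188, 3339, 3736 and 3603, and the 4 CD4 Treg-treated libraries 3196, 3397, 2499.9 and 2791. Every allogeneic and Treg-treated library therefore lay above every day 0 and syngeneic library. All adjusted p-values below are from limma with Benjamini-Hochberg adjustment over all genes, and a gene is said to have risen or fallen when its adjusted p was under 0.05. The log2 change from syngeneic to allogeneic CD4 cells was 1.56 (SE 0.16, adjusted p 9.96e-08), a fitted 2.95-fold, and that from day 0 was 1.93 (SE 0.18, adjusted p 5.07e-09). Within the label prefixes the difference from syngeneic was 1.59 for JL019 and 1.50 for JL027, and without CD4 syngeneic replicate JL019-2 it was 1.57 (adjusted p 7.91e-07).

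The same gene had 831 and 1060.4 in the CD8 day 0 libraries and 1312, 1136 and 1727 in the CD8 syngeneic libraries. The allogeneic CD8 libraries had 3577, 3337, 4026 and 3378, and the Treg-treated CD8 libraries 2492, 2925, 2106 and 2879. All 4 Treg-treated CD8 libraries lay below all 4 allogeneic ones and above all syngeneic ones. Slc25a20 rose in allogeneic against syngeneic CD8 cells by 1.38 on the log2 scale (SE 0.16, adjusted p 3.08e-07) and in Treg-treated against syngeneic CD8 cells by 0.91 (SE 0.16, adjusted p 0.000131). Treg-treated against allogeneic cells gave -0.47 in CD8 (SE 0.15, adjusted p 0.257) and -0.33 in CD4 (SE 0.15, adjusted p 0.113), and neither passed the test. With the log2 mean of each library as a covariate, the same differences were -0.61 (adjusted p 0.0148) and -0.53 (adjusted p 0.0158). The sum of the 10 myeloid markers was 8228 to 12436 in allogeneic and 14501 to 37833 in Treg-treated CD8 libraries, and its part in the Treg results of CD8 cells was not tested. In Treg themselves Slc25a20 rose from 1190.5 and 1177 at day 0 to 3229, 3354 and 2908 after transplantation, a log2 change of 1.41 (SE 0.19, adjusted p 6.54e-06).

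Cpt1a (ENSMUSG00000024900) had 2129 and 2198 in the CD4 day 0 libraries and 2605, 558 and 2194 in the CD4 syngeneic ones, the value of 558 being that of replicate JL019-2. The CD4 allogeneic libraries had 7985, 6587, 4769 and 6333, and the CD4 Treg-treated libraries 948, 839, 3612 and 1096. The allogeneic libraries were thus above all other CD4 libraries, and 3 of the 4 Treg-treated libraries were below both day 0 libraries. Cpt1a fell in Treg-treated against allogeneic CD4 cells, with a log2 change of -2.24 (SE 0.47, adjusted p 0.00737), a fitted ratio of 0.211. The difference was -3.02 within JL019 and -1.46 within JL027, and it stayed under the threshold in 8 of 8 fits that left out 1 library. Library means were 1504 to 1669 in allogeneic and 1608 to 2118 in Treg-treated CD4 cells, and with the log2 library mean as a covariate the change was -1.34 (adjusted p 0.0124). The myeloid marker sum ranged from 5812 to 11500.5 in allogeneic and from 24058 to 88504 in Treg-treated CD4 libraries, with 10 of 10 markers in the table and none of them at 0 in these libraries. The erythroid sum was 454 to 10738 in allogeneic and 5511 to 62581 in Treg-treated CD4 libraries. The CD4 lineage sum was 17389 to 22518 in allogeneic and 9319 to 18135 in Treg-treated ones, the highest of the latter being JL027-1. Gcg, which encodes glucagon and was the 1 of 3 pancreas markers in the table, was 3.29 to 11.8 and 573 to 1050.5. The part of these markers in this and the other Treg results of CD4 cells was not tested.

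Against syngeneic CD4 cells, Cpt1a rose in allogeneic cells by 2.10 (SE 0.50, adjusted p 0.00432). Without CD4 syngeneic replicate JL019-2 the change was 1.40 and the call was lost (adjusted p 0.0744). Against day 0 it was 1.54 (SE 0.57, adjusted p 0.0498), and this call was lost in 6 of 6 fits that left out 1 library, with adjusted p-values up to 0.212. With the library mean as a covariate the change from day 0 was 2.65 (adjusted p 1.05e-06), but library means did not overlap between these groups.

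CD8 cells had Cpt1a values of 1416 and 1809.7 at day 0 and of 1296, 1779 and 645 in syngeneic recipients. Values were 6245, 6327, 3316 and 5723 in allogeneic and 4686, 955, 3511 and 1965 in Treg-treated CD8 libraries. The last 2 groups overlapped, and the lowest Treg-treated library was below both day 0 libraries. Allogeneic against syngeneic CD8 cells rose by 2.20 (SE 0.50, adjusted p 0.00206), with 2.05 within JL019 and 2.75 within JL027. The rise over day 0 was 1.71 (SE 0.57, adjusted p 0.0247), a call kept in 2 of 6 fits that left out 1 library. The myeloid marker sum was 38567 to 63101 in syngeneic and 8228 to 12436 in allogeneic CD8 libraries, and in the CD4 syngeneic group it was at least 79075. Gcg was 167 to 350.4 in syngeneic CD4 libraries. Their part in the differences between allogeneic and syngeneic cells was not tested. Treg-treated against allogeneic CD8 cells gave -1.15 (SE 0.47, adjusted p 0.386), which did not pass the test, and with the library mean as a covariate it was -0.48 (adjusted p 0.64). The difference between the CD8 and the CD4 effect of Treg was 1.09 (SE 0.66, adjusted p 0.898). In Treg, Cpt1a was 1346 and 1748 at day 0 and 3674, 3036 and 3552 after transplantation, and the change of 1.15 (SE 0.60, adjusted p 0.246) did not pass although the libraries did not overlap. It passed when the Treg groups were fitted alone (adjusted p 0.00115) and with the library mean as a covariate (2.34, adjusted p 2.81e-05). Library means did not overlap between the Treg groups. Treg from Treg-treated recipients had more Cpt1a than CD4 cells from such recipients, by 1.35 (SE 0.50, adjusted p 0.0435), but with the library mean as a covariate this was 0.36 (adjusted p 0.474) and 6 of 7 fits that left out 1 library lost the call.

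Cpt2 (ENSMUSG00000028607) moved in CD8 cells and Treg. Its values were 503 and 520.3 at day 0, from 493 to 646 in syngeneic and from 743 to 883 in allogeneic CD8 cells. Allogeneic CD8 cells rose by 0.70 over day 0 (SE 0.20, adjusted p 0.00986) and by 0.51 over syngeneic cells (SE 0.18, adjusted p 0.0419). The first call was lost without CD8 day 0 replicate JL019 (0.68, adjusted p 0.0875), and the other in 6 of 7 fits that left out 1 library. Treg rose from 586 and 487 to 879, 862 and 799 (log2 change 0.66, SE 0.21, adjusted p 0.0379), a call that no fit with 1 library left out kept. In CD4 cells the group means ran from 591 to 700.3, and no comparison of CD4 groups passed.

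**Figure D2:**
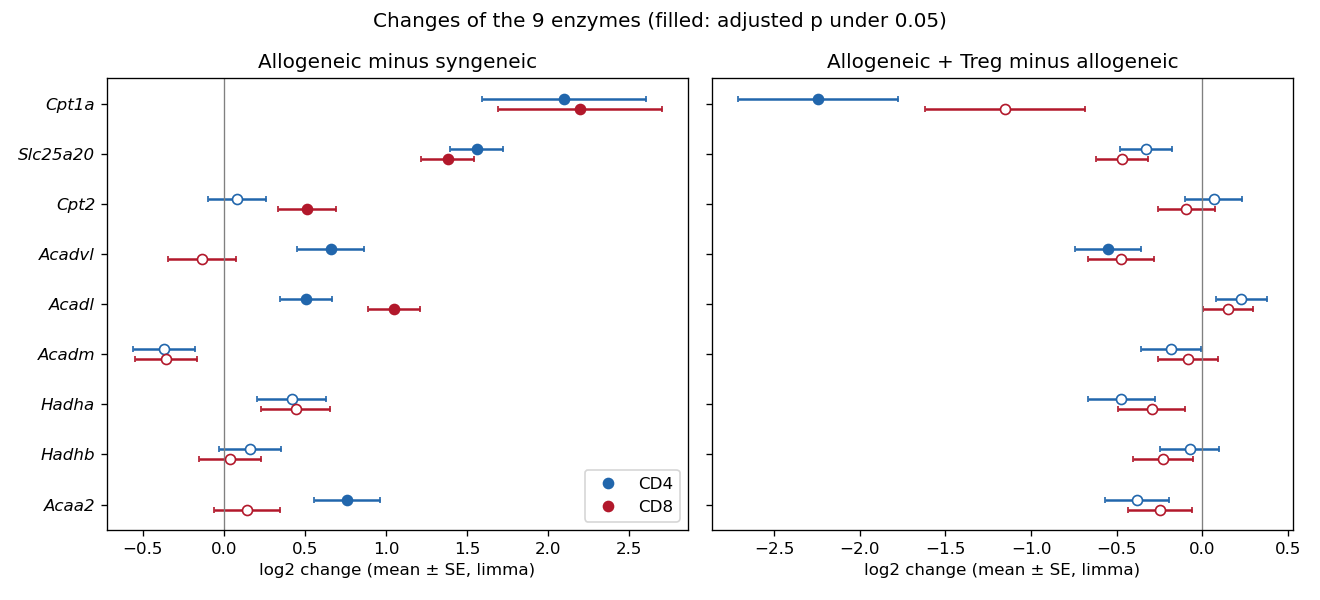
Fitted log2 change (point) and standard error (bar) of each enzyme for allogeneic minus syngeneic cells (left) and Treg-treated minus allogeneic cells (right), with CD4 in blue, CD8 in red and filled points for an adjusted p under 0.05. Cpt1a stands at 2.10 and 2.20 on the left and at -2.24 and -1.15 on the right.

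Among the 3 acyl-CoA dehydrogenases, the long-chain enzyme rose from day 0 in allogeneic and syngeneic cells of both lineages and in Treg, and the medium-chain enzyme fell from day 0 in the allogeneic groups. The very-long-chain enzyme rose from day 0 in allogeneic and syngeneic CD8 cells and passed in neither of these CD4 groups nor in Treg. Acadl (ENSMUSG00000026003), the long-chain acyl-CoA dehydrogenase, had 1867 and 1716 at day 0, 3186, 4260.3 and 3031 in syngeneic, 5017, 4519, 5061 and 5059 in allogeneic and 6155, 6502, 4689 and 5838 in Treg-treated CD4 libraries. In CD8 cells it had 1733 and 2063 at day 0, 3129, 2729 and 4105 in syngeneic, 6282, 6434, 7584 and 6874 in allogeneic and 6721, 8341, 6965 and 8219 in Treg-treated libraries. In both lineages the day 0 libraries were lowest, the syngeneic ones intermediate and the allogeneic and Treg-treated ones highest, the last 2 overlapping.

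Acadl rose from day 0 to allogeneic by 1.45 in CD4 (SE 0.18, adjusted p 5.6e-07) and by 1.84 in CD8 cells (SE 0.18, adjusted p 1.03e-08). Syngeneic cells also exceeded day 0, by 0.95 in CD4 (SE 0.19, adjusted p 0.000962) and by 0.79 in CD8 (SE 0.19, adjusted p 0.00452). The CD8 call was lost with the library mean as a covariate (0.33, adjusted p 0.0709) and without CD8 day 0 replicate JL019 (adjusted p 0.107), and both calls were lost when the groups compared were fitted alone (adjusted p 0.201 in CD4 and 0.0869 in CD8). The rise from syngeneic to allogeneic was 1.05 in CD8 (SE 0.16, adjusted p 1.64e-05) and 0.51 in CD4 cells (SE 0.16, adjusted p 0.0304), and the CD4 call was lost in 5 of 7 fits that left out 1 library. The difference between these changes, CD8 minus CD4, was 0.54 (SE 0.23, adjusted p 0.204). Treg-treated against allogeneic cells gave 0.23 in CD4 (SE 0.15, adjusted p 0.271) and 0.15 in CD8 (SE 0.15, adjusted p 0.677). In Treg, Acadl rose from 1464 and 1514 to 3426, 3601 and 3587, by 1.25 (SE 0.19, adjusted p 3.11e-05), and Treg remained below CD4 cells of Treg-treated recipients by 0.70 (log2 change -0.70, SE 0.16, adjusted p 0.00208).

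Acadm (ENSMUSG00000062908), the medium-chain acyl-CoA dehydrogenase, was the only member that fell in allogeneic against day 0 cells. It had 1328 and 1313 at day 0 and 828, 732, 761 and 653 in allogeneic CD4 libraries, and 1306 and 1699.9 at day 0 and 909.8, 837, 1059 and 841 in allogeneic CD8 libraries. No allogeneic library reached the day 0 values of its lineage. The log2 changes were -0.83 in CD4 (SE 0.22, adjusted p 0.00515) and -0.71 in CD8 cells (SE 0.22, adjusted p 0.0133). Leaving out either CD4 day 0 library ended the CD4 call (adjusted p 0.0567 without JL019 and 0.0532 without JL027), and leaving out CD8 day 0 replicate JL027 ended the CD8 call (adjusted p 0.161). Syngeneic means lay between those of day 0 and allogeneic cells, with libraries at 812, 1245 and 862 in CD4 and 1057, 996 and 1496 in CD8 cells. Treg-treated CD4 cells fell below syngeneic ones, with a log2 change of -0.55 (SE 0.19, adjusted p 0.0486), but without CD4 syngeneic replicate JL019-2 this was -0.36 (adjusted p 0.19), and with the recipient number as a replicate block the call was lost (-0.54, adjusted p 0.0538). The call was also lost without syngeneic replicate JL027 (adjusted p 0.0626). Leaving out Treg-treated replicate JL019-1, JL027-1 or JL027-2 ended it too (adjusted p 0.0921, 0.0851 and 0.102). Day 0 Treg had 705 and 789, below both day 0 CD4 libraries, with a log2 difference of -0.82 that did not pass (SE 0.25, adjusted p 0.0636). It passed with a replicate block (adjusted p 0.0356), with these groups fitted alone (adjusted p 0.0132) and with the library mean as a covariate (-0.78, adjusted p 0.00716). Day 0 libraries have no recipient number, so the block paired them by prefix, with a correlation of 0.145 shared by all blocks. The CD4 and CD8 day 0 libraries so paired correlated at -0.332 in their deviations from the group means. Treg pairs were not checked.

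Acadvl (ENSMUSG00000018574), the very-long-chain acyl-CoA dehydrogenase of the inner membrane, had 4888, 4201, 3961 and 4648 in allogeneic and 2799, 3303, 3204 and 2768 in Treg-treated CD4 libraries. These groups did not overlap, and Acadvl fell with Treg by 0.55 (log2 change -0.55, SE 0.19, adjusted p 0.0411). The call was lost in 6 of 8 fits that left out 1 library and with the library mean as a covariate (-0.36, adjusted p 0.247). Syngeneic CD4 libraries had 3743, 1796 and 3242, and the rise from syngeneic to allogeneic CD4 cells of 0.66 (SE 0.21, adjusted p 0.0307) became 0.34 without replicate JL019-2 (adjusted p 0.355). The call was also lost without allogeneic replicate JL019-1 (adjusted p 0.0855) or JL027-2 (adjusted p 0.0722). In CD8 cells Acadvl was 2095 and 2333 at day 0 and 3865, 3684 and 4235 in syngeneic recipients, which is a rise of 0.83 (SE 0.25, adjusted p 0.0185). This call was lost without CD8 day 0 replicate JL019 (adjusted p 0.178), without syngeneic replicate JL027 (adjusted p 0.0638), with quantile normalisation (0.50, adjusted p 0.111) and with the groups compared alone (adjusted p 0.0607). Allogeneic CD8 libraries had 4189.7, 3455, 2857 and 3952, a rise over day 0 of 0.69 (SE 0.24, adjusted p 0.0269) that was kept in 2 of 6 fits with 1 library left out (adjusted p up to 0.198) and lost with quantile normalisation (0.37, adjusted p 0.193). They differed from syngeneic ones by -0.13 (SE 0.21, adjusted p 0.707). Treg-treated CD8 libraries had 2918, 1778, 2800.3 and 2999, all below the syngeneic range, with a log2 change of -0.61 from syngeneic (SE 0.21, adjusted p 0.0404) that held in 3 of 7 fits with 1 library left out.

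The trifunctional protein carries out the last 3 steps for long chains, with Hadha for the hydratase and dehydrogenase and Hadhb for the thiolase. Hadha passed in 1 of the 17 comparisons and Hadhb in none. Hadha (ENSMUSG00000025745) had 1839.6 and 1950.4 at day 0, 2736, 1421 and 2676 in syngeneic, 3134, 3065, 2514 and 3012 in allogeneic and 1897, 1879, 3061 and 1796 in Treg-treated CD4 libraries. Treg-treated replicate JL027-1, with 3061, was the only one of its group inside the allogeneic range. The change with Treg was -0.47 (SE 0.20, adjusted p 0.0797), and without that replicate it was -0.65 (adjusted p 0.0101). In CD8 cells Hadha rose from 1835 and 2612 at day 0 to 3450.3, 3701, 3097 and 3569 in allogeneic recipients (log2 change 0.65, SE 0.24, adjusted p 0.0392). The call was kept in 2 of 6 fits with 1 library left out, the change being 0.40 without CD8 day 0 replicate JL019 (adjusted p 0.439), and it was lost with quantile normalisation (0.34, adjusted p 0.273).

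For Hadhb (ENSMUSG00000059447) the log2 changes over the 17 comparisons ran from -0.23 to 0.37. Its group means lay between 5413 and 7856. The CD4 allogeneic libraries had 5974, 5111, 6629 and 6335, the CD8 allogeneic ones 7225, 6781, 10605 and 6814, and the Treg after transplantation 5651, 5889 and 4949. Every one of these groups overlapped its day 0 counterpart. Over the 31 libraries, log2 values of Hadha and Hadhb had a Pearson r of 0.429, given as a description.

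Acaa2 (ENSMUSG00000036880), the mitochondrial thiolase for medium chains, separated allogeneic CD4 cells from the other 2 CD4 conditions without Treg. It had 3729 and 3421 at day 0, 4429, 4589 and 3776 in syngeneic and 8037, 6079, 7443 and 7365 in allogeneic CD4 libraries. The rise was 1.01 over day 0 (SE 0.23, adjusted p 0.00161) and 0.76 over syngeneic cells (SE 0.20, adjusted p 0.00998), and the latter was 0.81 without syngeneic replicate JL019-2 (adjusted p 0.0187) and 0.67 without syngeneic replicate JL027, which ended the call (adjusted p 0.0517). Treg-treated CD4 libraries had 6771, 6214, 4164 and 5322, overlapping the allogeneic ones, with a change of -0.38 (SE 0.19, adjusted p 0.141). It passed with the library mean as a covariate (-0.68, adjusted p 0.00714) and with quantile normalisation (-0.55, adjusted p 0.00862). In CD8 cells the syngeneic libraries spread from 4551 to 9244 and covered the allogeneic range of 6372 to 7776. The rise from day 0 to allogeneic CD8 cells of 0.65 (SE 0.23, adjusted p 0.0322) was 0.16 with the library mean as a covariate (adjusted p 0.48). This call was kept in 3 of 6 fits with 1 library left out (0.46, adjusted p 0.343 without CD8 day 0 replicate JL019) and was also lost with quantile normalisation (0.22, adjusted p 0.335) and median centring (0.73, adjusted p 0.0618). Treg had the lowest group means, with 2626 and 2842 at day 0 and 3138, 3442 and 2813 after transplantation, and stood below CD4 cells of Treg-treated recipients (log2 change -0.82, SE 0.20, adjusted p 0.0038).

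Counted over the 9 members, allogeneic against syngeneic CD4 cells had 5 higher and 0 lower, where 14.6% of all genes passed in either direction. The 3 calls left without CD4 syngeneic replicate JL019-2, where 10.9% of all genes passed, were Slc25a20, Acadl and Acaa2. Allogeneic against syngeneic CD8 cells had 4 higher and 0 lower, where 21.1% of all genes passed. The difference of these changes between CD8 and CD4 cells passed for 0 members and 4.65% of all genes, with 3 members at an unadjusted p under 0.05 (Acadl, Acadvl and Acaa2) and 2763 of 16741 genes. Against day 0, allogeneic cells had 4 higher and 1 lower in CD4 (24.0% of all genes) and 7 higher and 1 lower in CD8 (30.4%), and the median log2 change was 0.62 and 0.69 over the members against -0.04 and -0.13 over all genes. Without CD8 day 0 replicate JL019 the CD8 count was 2 higher and 1 lower, and the share of all genes fell as well, to 16.7%. With 1 of the CD4 day 0 libraries left out, the CD4 count was 3 higher and 0 lower, and 13.5% of all genes passed without JL019 and 13.0% without JL027. Of the 8 B cell markers listed, 7 were in the table, and their sum was 16437 to 17918 in day 0, 3449 to 4057 in syngeneic and 1136 to 1257 in allogeneic CD8 libraries. In CD4 libraries it was 4761 to 4929 at day 0 and 934 to 1378 in allogeneic cells. The myeloid sum was 934 to 1878 in the CD4 day 0 libraries, both with the myeloid marker Cd14 at 0, and 4049.7 to 5512 in the CD8 day 0 libraries, against 38567 to 63101 in syngeneic and 8228 to 12436 in allogeneic CD8 libraries. The erythroid sum was 30572 to 34782 in day 0, 3247 to 11089.7 in syngeneic and 563 to 14787 in allogeneic CD8 libraries. In Treg it was 121 to 455 at day 0 and 1670 to 50244 after transplantation, Gcg was at 0 in both day 0 libraries and 68.8 to 436 after, and the myeloid sums overlapped. The part of these cells in the differences from day 0 was not tested. Syngeneic against day 0 cells had 1 higher in CD4, where 13.0% of all genes passed, or 7.93% without CD4 syngeneic replicate JL019-2. In CD8 they had 3 higher (24.2% of all genes), and without CD8 day 0 replicate JL019 0 members and 5.98% of all genes passed. Treg after transplantation had 3 higher than at day 0 (13.3% of all genes), and with 1 of the Treg day 0 libraries left out 2 members passed, with 6.50% of all genes without JL019 and 7.59% without JL027. Acadl is in each of these 5 sets, and Slc25a20 in all of them but CD4 syngeneic against day 0. In CD8 syngeneic cells Slc25a20 rose over day 0 by 0.55 (SE 0.19, adjusted p 0.0416), a call kept in 2 of 5 fits with 1 library left out and lost with median centring, quantile normalisation, the groups compared alone and the library mean as a covariate (0.16, adjusted p 0.507).

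The question of the study was the effect of Treg on conventional T cells. Treg-treated against allogeneic CD4 cells had 0 higher and 2 lower members, Cpt1a and Acadvl, where 22.2% of all genes passed, so that in this fit the members' share was close to that of all genes. Without CD4 Treg-treated replicate JL019-2, Cpt1a alone passed and 2.81% of all genes did. Treg-treated against allogeneic CD8 cells had 0 members and 0.0657% of all genes past the threshold, with 3 members at an unadjusted p under 0.05 in limma, Cpt1a, Acadvl and Slc25a20, all lower, where 1851 of 16741 genes were under it. The difference between the CD8 and the CD4 effect passed for 0 members and for 0.00597% of all genes, and 0 members and 430 genes had an unadjusted p under 0.05. Against syngeneic cells, Treg-treated cells had 2 higher and 1 lower member in CD4 (16.7% of all genes) and 2 higher and 1 lower in CD8 (18.2%), with Acadl and Slc25a20 higher in both lineages. Without CD4 syngeneic replicate JL019-2 the CD4 count was 2 higher and 0 lower, where 27.6% of all genes passed. These comparisons share the allogeneic or syngeneic libraries with those above and are not independent of them.

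Between cell types, the count of members that passed stayed near the share of all genes in each comparison. Treg against CD4 cells at day 0 had 0 (3.89% of all genes, and at an unadjusted p under 0.05 1 member, Acadm, and 2493 of 16741 genes), and in Treg-treated recipients 1 higher and 2 lower (30.0% of all genes). The median change over all genes in the last comparison was 0.14, above 0. Its groups also differed in the myeloid sum, 24058 to 88504 in CD4 and 1993 to 7320.3 in Treg libraries, and in Gcg, 573 to 1050.5 and 68.8 to 436, and the part of these markers in the 3 calls was not tested. CD8 against CD4 cells had 0 at day 0 (3.32% of all genes, no member and 1981 genes at an unadjusted p under 0.05) and 0 in allogeneic recipients (6.15%, with Acadl and Hadhb at an unadjusted p under 0.05, as were 2888 of 16741 genes). Acadl was higher in every allogeneic CD8 than in every allogeneic CD4 library, by 0.46 on the log2 scale (SE 0.15, adjusted p 0.0613). It passed with the recipient number as a replicate block (adjusted p 0.0349), with these groups fitted alone (adjusted p 0.0247) and with the library mean as a covariate (0.33, adjusted p 0.0118).

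**Figure D3:**
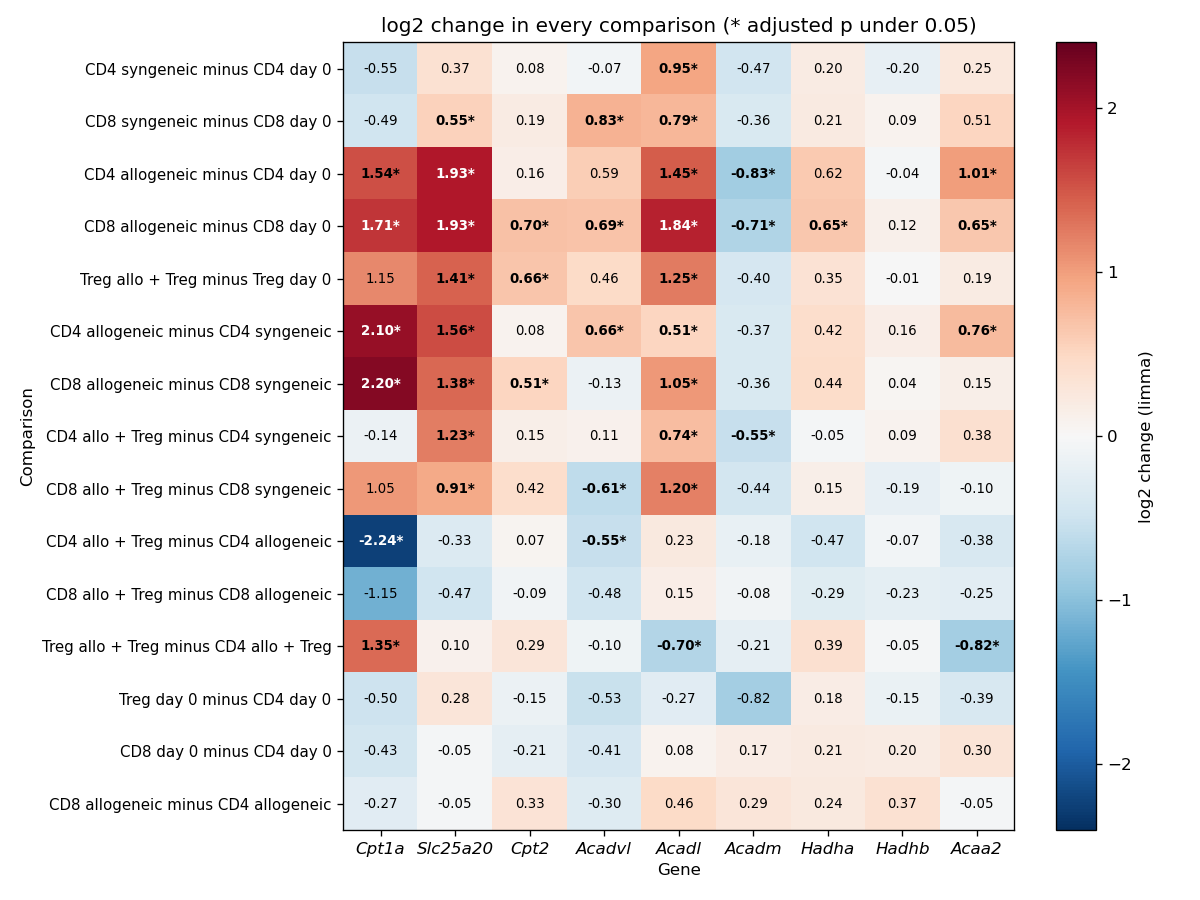
Fitted log2 change of the 9 enzymes (columns) in 15 comparisons between groups (rows), in red where the first group was higher and in blue where it was lower, with an asterisk for an adjusted p under 0.05. The columns of Slc25a20 and Acadl are red wherever cells after transplantation are set against day 0, that of Acadm is blue there, and that of Hadhb has no asterisk.

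Genes upstream of the shuttle, which take up and activate fatty acids, changed in both directions. Of 13 genes listed, 12 were in the table. In allogeneic against syngeneic CD4 cells 2 were higher and 2 lower, with a median change of -0.31, where 14.6% of all genes passed. Without CD4 syngeneic replicate JL019-2, 1 was higher and 2 lower, the median was 0.07 and 10.9% of all genes passed. The acyl-CoA synthetase Acsbg1 rose by 2.75 (SE 0.38, adjusted p 8.12e-06) and by 2.05 without that library (adjusted p 4.54e-05), whereas Acsl3, another synthetase, had a change of -2.97 (SE 0.56, adjusted p 0.000379) and of -2.95 without it (adjusted p 0.00191). In CD8 cells 3 were higher and 1 lower (median 0.69, 21.1% of all genes), led by the fatty acid translocase Cd36 at 4.34 (SE 0.72, adjusted p 5.15e-05) and the fatty acid binding protein Fabp5 at 1.69 (SE 0.37, adjusted p 0.00114). With Treg, CD4 cells had 2 higher and 3 lower (median -0.40, 22.2% of all genes), the lowest p-values being those of Fabp5 (1.50, adjusted p 0.00943) and Acsbg1 (-1.49, adjusted p 0.011). Without CD4 Treg-treated replicate JL019-2 these were the 2 calls left, the median was 0.09 and 2.81% of all genes passed. CD8 cells with Treg had 0 past the threshold in any of the 4 lists (0.0657% of all genes). From day 0 to allogeneic, 5 were higher and 1 lower in CD4 (24.0% of all genes) and 4 higher and 1 lower in CD8 cells (30.4%). Acsl3 had the lowest p in each (-3.54 and -4.13), followed by Acsbg1 in CD4 (2.23, adjusted p 0.000276) and the acyl-CoA binding protein Dbi in CD8 cells (1.84, adjusted p 0.000292).

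The remaining mitochondrial oxidation genes, 22 of 22 in the table, had 2 higher and 3 lower in allogeneic against syngeneic cells of each lineage, with medians of 0.10 in CD4 and 0.13 in CD8, against 14.6% and 21.1% of all genes. Without CD4 syngeneic replicate JL019-2, 2 were higher and 1 lower in CD4. Hadh, the dehydrogenase for medium and short chains, rose by 0.99 in CD4 cells (adjusted p 0.000501), and by 0.69 without that library (adjusted p 0.00901). Etfdh, which passes electrons from the acyl-CoA dehydrogenases to ubiquinone, rose by 0.80 in CD4 (adjusted p 0.00158, and 0.76 without it, adjusted p 0.00979) and 0.91 in CD8 cells (adjusted p 0.000269). Ivd, the isovaleryl-CoA dehydrogenase of leucine breakdown, fell by 0.83 in CD8 cells (log2 change -0.83, adjusted p 0.00251). With Treg, CD4 cells had 3 higher and 4 lower (median -0.08, 22.2% of all genes), and 0 without CD4 Treg-treated replicate JL019-2, among them Etfdh at -0.54 (adjusted p 0.0216) and Decr1, an auxiliary reductase for unsaturated chains, at 0.77 (adjusted p 0.026).

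Peroxisomal oxidation genes, 14 of 14 in the table, had 7 lower and 2 higher in Treg-treated against allogeneic CD4 cells, with a median of -0.43 against -0.0018 over all genes, of which 22.2% passed. Without CD4 Treg-treated replicate JL019-2, 3 were lower and 1 higher, the median was -0.32 and 2.81% of all genes passed. Acox3, an acyl-CoA oxidase of peroxisomes, had a change of -1.53 (SE 0.30, adjusted p 0.00511), and of -1.47 without that library (adjusted p 0.0261). In Treg against CD4 cells of Treg-treated recipients, 6 were higher and 3 lower (30.0% of all genes), with Acox3 at 1.55 (adjusted p 0.001). In allogeneic against syngeneic cells 1 was higher and 1 lower in CD4 (14.6% of all genes), with or without CD4 syngeneic replicate JL019-2, and 3 were higher in CD8 (21.1%). Crot, the carnitine octanoyltransferase of peroxisomes, rose in CD4 by 1.33 (adjusted p 2.5e-05) and by 1.18 without that library (adjusted p 0.000391). The thiolase Acaa1b had a change of -2.30 in CD4 (adjusted p 0.0146, and -2.73 without it, adjusted p 0.0128) and of 3.69 in CD8 cells (adjusted p 0.000105). Crat, the carnitine acetyltransferase, rose in CD8 by 1.70 (adjusted p 0.00221).

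Of 20 regulators listed, 19 were in the table. In allogeneic against syngeneic CD4 cells 3 were higher (14.6% of all genes), with the triglyceride lipase Pnpla2 at 0.90 (adjusted p 0.00644) and Rxra, the partner of PPAR receptors, at 1.42 (adjusted p 0.0181). Without CD4 syngeneic replicate JL019-2, 2 were higher and 1 lower, with Pnpla2 at 0.88 (adjusted p 0.0249) and Rxra at 1.01, which lost its call (adjusted p 0.167). The same comparison in CD8 cells had 2 higher and 3 lower (21.1%), with Mlycd, the malonyl-CoA decarboxylase, at -0.9977 (adjusted p 0.00943) and Acacb, the acetyl-CoA carboxylase of the mitochondrial surface, at 1.81 (adjusted p 0.0228). With Treg 4 were lower in CD4 cells (22.2% of all genes), and 0 without CD4 Treg-treated replicate JL019-2, with Pnpla2 at -0.70 (adjusted p 0.0226) and the coactivator Ppargc1b at -1.04 (adjusted p 0.0328). The medians of these lists and of all genes are given as descriptions.

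The 5 genes outside the members whose log2 values were most like the mean standardised profile of the 9 members over the 31 libraries were Nde1 (Pearson r 0.931), Gars (0.926), Etfdh (0.921), Polr3c (0.911) and Acsl5 (0.910). Among the members, the highest r over the 31 libraries was 0.821 for Cpt1a with Hadha, and Slc25a20 with Acadl had 0.811. These points share libraries and groups, and the values are descriptions.

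Members also varied within groups along with the mean normalised count of the library. Taken as deviations from the group means on the log2 scale over 31 libraries, Acadl (Pearson r 0.922, Spearman rho 0.945), Acaa2 (0.810, 0.858), Slc25a20 (0.757, 0.795) and Acadm (0.740, 0.762) were higher in libraries with a higher mean, and Cpt1a (-0.848, -0.717) and Hadha (-0.704, -0.625) were lower. For these 6 genes the permutation p-values within groups, adjusted over the 9 members, ran from 9e-05 to 0.0122 for r and from 4.5e-05 to 0.0169 for rho. The library mean is taken over all genes, and the share of all genes that follow it was not computed. These values therefore do not set the members apart from other genes. Acadvl had an r of -0.487 (adjusted p 0.112), Cpt2 of -0.158 (adjusted p 0.614) and Hadhb of -0.056 (adjusted p 0.823). Without the 2 libraries farthest from the median library mean, r was -0.853 for Cpt1a and 0.943 for Acadl. Within the prefixes it was -0.874 and -0.801 for Cpt1a and 0.947 and 0.959 for Acadl. Fitted with the log2 library mean as a covariate, 7 members rather than 3, and 4482 genes rather than 2231, passed in Treg after transplantation against day 0, and the change of Cpt1a from day 0 to syngeneic CD8 cells turned from -0.49 (adjusted p 0.571) to 1.27 (adjusted p 0.0274). Library means did not overlap between the groups in either comparison.

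**Figure D4:**
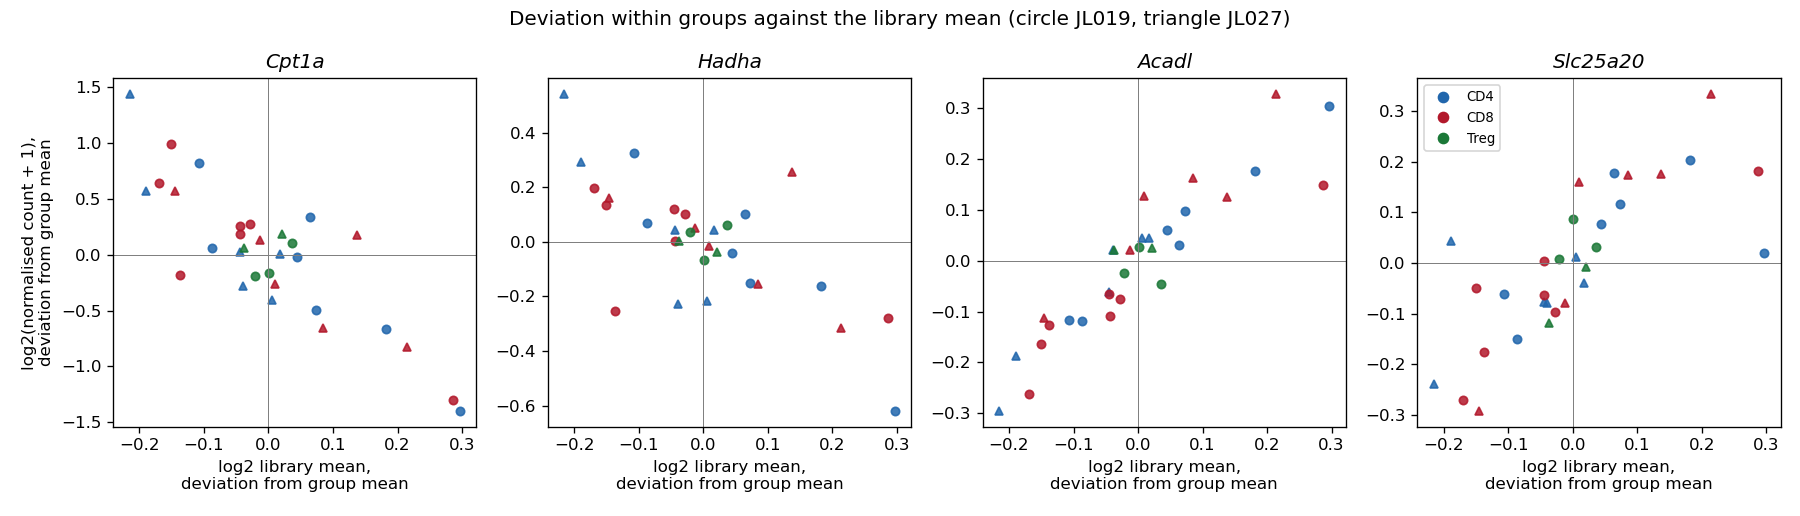
Deviation of log2(normalised count + 1) from the group mean (y axis) against the deviation of the log2 library mean (x axis) for Cpt1a, Hadha, Acadl and Slc25a20 in the 31 libraries, coloured by cell type, with circles for JL019 and triangles for JL027. Cpt1a and Hadha fall along the x axis (r -0.848 and -0.704), and Acadl and Slc25a20 rise (0.922 and 0.757).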

How the data were processed

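RNA was sequenced in 31 libraries made with the SMARTer v4 full-length cDNA and Nextera XT kits, per the labels' protocols. FastQC 0.11.7, kallisto, DESeq2 and the builds GRCm38 and mm10 are named in the submitters' processing notes, without role or order. The deposited table holds a DESeq2-normalised signal for 16741 genes, and its mean column, made by the authors, equals the mean of the 31 libraries. The authors' log2 fold changes, their test statistic (a score) and their p-values are in the same deposited table, for groups the headers do not name, and were not used. Of the non-zero values, 0.0469% were whole within 1e-06, so no count test was run and the depth per library is unknown. The T cell receptor tables were not used here.

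Values were analysed as log2(value + 1), so fold changes of low genes are understated, for genes with a mean of at least 1, which all 16741 met. limma 3.58.1 in R 4.3.3 fitted 10 group means over the 31 libraries (empirical Bayes with trend and robust), with 17 contrasts, Benjamini-Hochberg adjustment over all genes and a threshold of 0.05. The script was tested on simulated data with known changes. Correlations with the library mean were tested with 100000 permutations within groups (two-sided), the smallest p being 1e-05. Python 3.11.15 with pandas 2.3.3, numpy 2.4.6, scipy 1.17.1 and matplotlib 3.10.9 served for the rest.

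Members and gene lists were chosen with earlier results of these data known. The text names all 9 members, from each list the 2 called genes with the lowest p in a comparison described, and the 5 genes most like the members among those with a mean of at least 10. One gene that this rule names is not reported here. Alternatives were another pseudocount, other filters, median centring, quantile normalisation, plain empirical Bayes, a library mean covariate, blocks for prefix or recipient, fits of the groups compared alone, and leaving out each library.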

Additional observations from a re-analysis of the deposited data

Results flagged for a closer look

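In 5 of the 36 groups of 4 libraries tested (9 members in 4 groups), 1 library stood far from the other 3, where chance gives about 1 in 20 for a single test. These tests share libraries, and the rate over all genes was not computed, so the count is not read as a trait of the members. Cpt1a was 3612 in CD4 Treg-treated replicate JL027-1, against 839 to 1096 in the others of its group. The same library had a Hadha value of 3061, against 1796 to 1897. Acadvl was 1778 in CD8 Treg-treated replicate JL019-2, against 2800.3 to 2999. Acadl was 4519 in CD4 allogeneic replicate JL019-2, against 5017 to 5061. Hadhb was 10605 in CD8 allogeneic replicate JL027-1, against 6781 to 7225.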

How the results depend on the processing

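The 9 members in 17 comparisons gave 153 results and 2646 alternatives, of which 2399 kept direction and side of the threshold, 114 lost and 37 gained a call, 95 moved and 1 reversed. The reversed one was Cpt1a in syngeneic against day 0 CD8 cells, 1.27 with the library mean as a covariate. Counts of members past the threshold stayed within 1.5 times in 254 of 294 alternatives. In Treg-treated against allogeneic CD4 cells the count of 2 became 1 with median centring, 4 with quantile normalisation and 1 with plain empirical Bayes. Quantile normalisation also took allogeneic against day 0 CD8 cells from 8 to 5, syngeneic against day 0 CD8 cells from 3 to 1, and the CD8-minus-CD4 difference of the allogeneic change from 0 to 1, as did median centring. The library mean covariate gave 1 in place of 0 for Treg-treated against allogeneic CD8 cells, 5 in place of 3 for Treg-treated against syngeneic CD8 cells, 2 in place of 1 for syngeneic against day 0 CD4 cells, 7 in place of 3 for Treg, 3 in place of 0 for the difference of the allogeneic change, and 1 in place of 0 both for day 0 Treg against CD4 and for allogeneic CD8 against CD4 cells. Fits of the groups compared alone gave 3 in place of 5 for allogeneic and 1 in place of 3 for Treg-treated against syngeneic CD4 cells, 0 for syngeneic against day 0 cells of both lineages, and 1 in place of 0 for day 0 Treg against CD4 and for allogeneic CD8 against CD4 cells. Except for Treg with the covariate, calls over all genes under these settings are not given here. The moves in these counts are therefore not read as particular to the members. Libraries of different cell types that share prefix, arm and number correlated in their deviations from the group means at -0.332 to 0.489 over 13 pairs, 7 of them over 0.1. This number, or the prefix for day 0 libraries, as a recipient replicate block gave 1 in place of 0 for day 0 Treg against CD4 cells (Acadm) and for allogeneic CD8 against CD4 cells (Acadl). All genes called there went from 651 to 914 and from 1029 to 1374. The block lost Acadm in Treg-treated against syngeneic (adjusted p 0.0538) and Cpt1a in allogeneic against day 0 CD4 cells (adjusted p 0.0504). The prefix as a replicate block moved no count beyond 1.5 times, but also ended that Cpt1a call (adjusted p 0.0555). Other calls ended by a setting and not given with their values were, with median centring, Acadm in allogeneic against day 0 CD8 cells, Cpt2 in allogeneic against syngeneic CD8 cells and in Treg against day 0, Acadl in allogeneic against syngeneic CD4 cells, Acadvl in Treg-treated against allogeneic and Acadm in Treg-treated against syngeneic CD4 cells. Quantile normalisation ended Cpt2 in allogeneic against syngeneic CD8 cells, Acadvl in allogeneic against syngeneic, Acadm in Treg-treated against syngeneic and Cpt1a in allogeneic against day 0 CD4 cells. Fits of the groups compared alone ended Acadl, Acadvl and Cpt2 in allogeneic against syngeneic cells (Cpt2 in CD8, the others in CD4), Acadl and Acadm in Treg-treated against syngeneic CD4 cells and Acadvl in the same comparison of CD8 cells. Plain empirical Bayes ended Acadvl in Treg-treated against allogeneic CD4 and against syngeneic CD8 cells, Acadm in Treg-treated against syngeneic CD4, Cpt1a in allogeneic against day 0 CD4 and Cpt1a in Treg against CD4 cells of Treg-treated recipients. A pseudocount of 0.1 ended Cpt1a in allogeneic against day 0 CD4 cells. Where no value above shows it, the cause was not tested.

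Leaving out 1 library at a time gave 1 to 3 members for Treg-treated against allogeneic CD4 cells, 0 in CD8 cells, 3 to 5 for allogeneic against syngeneic CD4 cells and 3 to 4 in CD8 cells. It gave 2 to 3 for Treg-treated against syngeneic CD4 and 2 to 4 for CD8 cells, 3 to 4 for allogeneic against day 0 CD4 and 3 to 7 for CD8 cells, 1 and 0 to 4 for syngeneic against day 0 CD4 and CD8 cells, 2 for Treg against day 0, 2 to 4 for Treg against CD4 cells of Treg-treated recipients, and 0 to 1 for the difference of the allogeneic change. The calls over all genes also moved, though not always in the same direction as these counts. Treg-treated against allogeneic CD4 cells had 3710, and leaving out JL019-2 of the Treg-treated group gave 470, JL027-1 of that group 5633, and each other library but allogeneic JL027-1 from 672 to 2285. Treg-treated against syngeneic CD4 cells had 2789, and 4617 without syngeneic JL019-2, 4653 without Treg-treated JL027-1 and 1817 without Treg-treated JL019-2. Against day 0, leaving out 1 day 0 library took allogeneic CD4 cells from 4013 to 2178 or 2252, syngeneic CD4 cells from 2181 to 942 or 975 (1328 without syngeneic JL019-2) and Treg from 2231 to 1088 or 1271. Without CD8 day 0 JL019, allogeneic CD8 cells went from 5097 to 2795 and syngeneic ones from 4053 to 1001 (2612 without syngeneic JL019-1 and 2123 without JL027). Treg against CD4 cells of Treg-treated recipients went from 5016 to 3119 without Treg JL019-1, allogeneic CD8 against CD4 cells from 1029 to 661 without CD4 allogeneic JL019-2, day 0 Treg against CD4 from 651 to between 261 and 302, and day 0 CD8 against CD4 from 556 to between 266 and 340. In Treg-treated against allogeneic CD8 cells, 11 calls became 4 to 63. Groups of 2 to 4 libraries limit the precision of every value.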
